A study of Mus musculus with 6 samples.

Results

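Ceruloplasmin and the genes that move iron into, within and out of cells were examined in immortalized proximal tubular cells of the mouse. The members were Cp, Heph, Slc40a1, Slc11a2, Tfrc, Trf, Fth1, Ftl1, Ireb2 and Lcn2, 10 of the 19057 genes with a probe on the array, and together they had 24 probes. Cp was chosen because it fell in this same comparison, so its values are given as a description, with no test. The other 9 members were selected on their role in iron handling, with earlier results of these data known. Both groups were cells of the same line, labelled as of C56BL/6 strain background and harvested 7 days after lentiviral infection. The 3 control arrays came from cells with a short hairpin RNA against GFP and the 3 knockdown arrays from cells with one against Glis2, which encodes a zinc finger protein whose loss leads to cystic and fibrotic kidneys. How many hairpins were used per target is not stated in the labels, and lowering of Glis2 cannot be told apart from other effects of the hairpins. Nothing in the labels ties the 3 arrays of a group to separate cultures, so p-values measure only how these samples spread, and part of that spread may be technical.

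Iron circulates bound to transferrin, the product of Trf, and enters cells through the transferrin receptor, Tfrc. The endosomal carrier DMT1, encoded by Slc11a2, then moves it into the cytosol. Ferritin, built from the heavy chain Fth1 and the light chain Ftl1, stores it, and ferroportin, Slc40a1, exports it. The multicopper ferroxidases ceruloplasmin and hephaestin (Heph) oxidise exported iron so that transferrin can bind it. Iron regulatory proteins, of which Ireb2 encodes one, bind iron-responsive elements when iron is low. Binding near the start of the Fth1, Ftl1 and Slc40a1 transcripts blocks translation, whereas binding near the end of the Tfrc transcript protects it from decay. Proximal tubule cells take up filtered iron, and lipocalin 2 (Lcn2), which carries iron in bacterial siderophores, is a known marker of tubular injury.

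The table gives 1 intensity per probe and array, with background left in. A probe counted as above background if it averaged more than 137 over all 6 arrays, the most frequent intensity, 113, plus 3 times the spread estimated from the values below it. On each array 40.9% of probes lay above this limit. Glis2 itself fell on both of its probes, from 247 ± 26.4 to 169 ± 7.39 and from 206 ± 13.6 to 161 ± 15.9 (SD, n = 3 arrays each), with limma's adjusted p = 7.16e-05 and 0.00577. With background subtracted the second probe was not called (limma's adjusted p = 0.179). The design text gives a knockdown above 80%, measured by a method not analysed here. Of 13 proximal tubule markers measured, 3 lay above the limit (Aqp1, Mme and Pax8), and the endocytic receptors Lrp2 and Cubn did not. The summed intensity of those 13 markers ran from 11980 to 13629 in control and from 2324 to 2617 in knockdown arrays. Most of that sum in control arrays, and of its fall, came from Aqp1. Of the 13, Aqp1 and Mme fell and 11 were not called, among them Pax8 (log2 fold change -0.21, limma's adjusted p = 0.102). Aqp1, the water channel of this segment, had 9760 ± 706 in control and 365 ± 101 in knockdown arrays (SD, n = 3; the log2 fold change was -4.77, with limma's adjusted p = 1.41e-17). Of the markers of other kidney and immune cells, those above the limit numbered 2 of 5 for the loop of Henle and distal tubule, 1 of 6 for the collecting duct, 2 of 3 for podocytes, 0 of 6 for endothelium and 1 of 6 for fibroblasts. The podocyte markers Podxl and Synpo rose by 0.39 and 0.42 on the log2 scale (limma's adjusted p = 0.00168 and 0.000812), and the fibroblast marker Dcn fell from 275 ± 30.3 to 139 ± 17.7 (limma's adjusted p = 1.02e-07). The part of these markers in the results below was not tested. In these bulk samples, fewer cells that make a transcript and less of it per cell cannot be told apart.

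Cp, the copper-carrying ferroxidase, was about 8 times lower in the knockdown. Its brightest probe, ILMN_3083163, read 5222, 4793 and 4887 in control and 557, 638 and 679 in knockdown arrays. Every knockdown array lay far below every control array. The group means were 4968 ± 225 and 625 ± 62.1 (SD, n = 3 each), a log2 fold change of -2.99 ± 0.088 (SE). The dimmer probes of Cp were lower too. ILMN_2520239 read 731, 645 and 602 in control against 243, 234 and 313 in knockdown arrays, a log2 fold change of -1.33. ILMN_2555238 read 374, 305 and 344 against 123, 119 and 145, or -1.40, and only 1 of its knockdown arrays exceeded the limit. ILMN_1218681, the dimmest, read 183, 167 and 169 against 143, 126 and 126, or -0.39, again with 1 knockdown array above the limit. The groups were separate on all 4 probes, but Cp was chosen for its fall, so nothing is read from that. The size of the fall differed between the probes. Background makes up more of a dim value. With the most frequent intensity subtracted, the log2 fold changes of the 2 brightest probes were -3.25 and -1.89; for the other 2, knockdown arrays then fell to the floor of 16, so no value is given. Probes of a gene share its transcript and are not replicates of the condition.

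Among the 15404 named probes of other genes above the limit, the patterns over the 6 arrays nearest to the brightest Cp probe belonged to Axl, Glipr1 and Mme. Likeness here is the Euclidean distance between log2 values centred on each probe's mean, which was 0.20 for Axl, 0.26 for Glipr1 and 0.36 for Mme. Axl, a receptor tyrosine kinase, went from 7255 ± 293 to 878 ± 27.0, and Mme, a brush border peptidase, from 855 ± 146 to 118 ± 5.08 (SD, n = 3), under the limit on all 3 knockdown arrays. With only 3 arrays a group, such a distance mostly reflects the difference between the groups, which chose Cp.

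Heph, the membrane-bound relative of ceruloplasmin, was not well above background in either group. All 5 of its probes lay under the limit on all 6 arrays, with readings from 104 to 129. Their log2 fold changes ran from -0.13 to 0.13 and none was called (limma's adjusted p 0.405 to 0.942). Trf was likewise under the limit on every array, at 128, 125 and 117 in control and 125, 129 and 128 in knockdown cells. The array therefore gives no level for hephaestin or transferrin in these cells. A probe under the limit does not bound its transcript. ILMN_2816707 of Ftl1 and ILMN_1238359 of Slc40a1 also lay under it, while the other probe of each gene was bright.

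**Figure D1:**
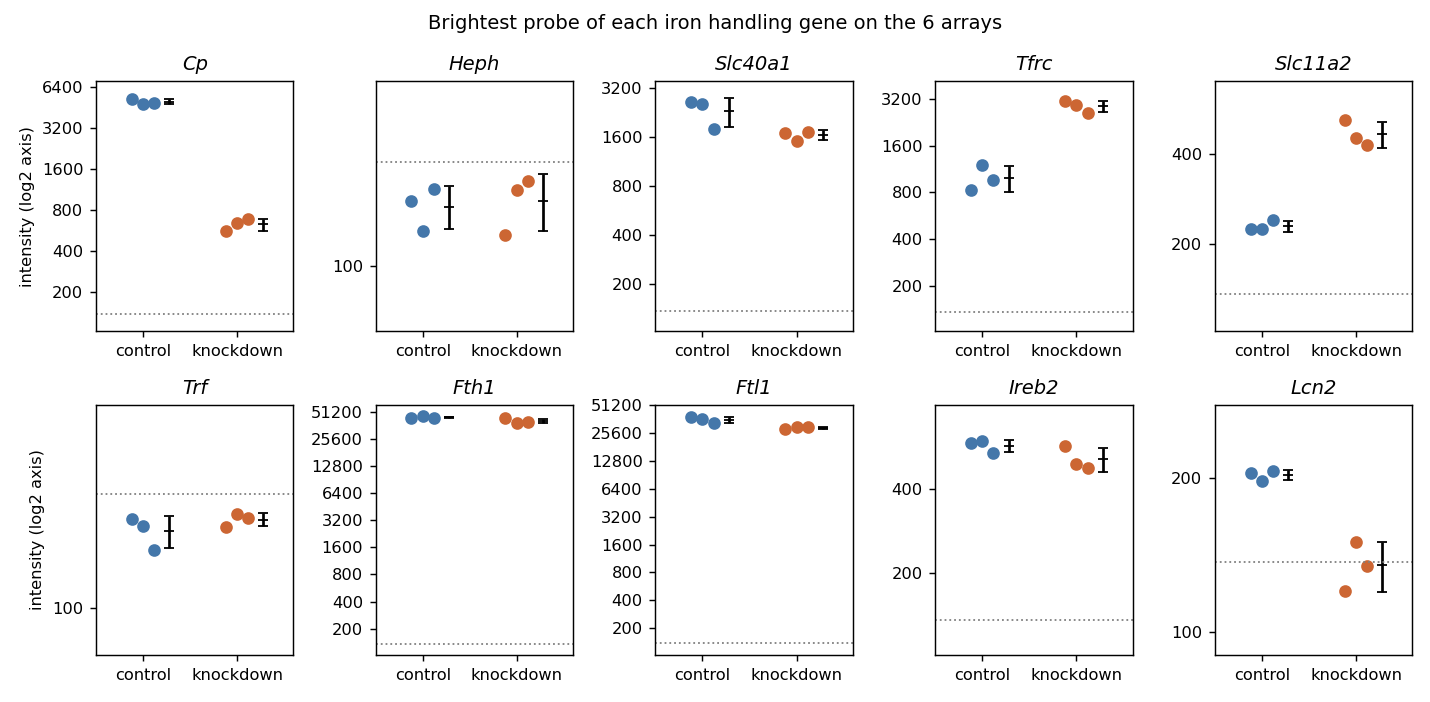
Intensity of the brightest probe of each member on the 6 arrays (vertical log2 axis, a different range in each panel); points are arrays, bars are mean ± SD of 3 arrays, and the dotted line is the background limit of 137. Cp drops from about 4968 to 625 and Tfrc climbs from 998 to 2871, while the points of Heph and Trf stay under the limit.

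Tfrc, the receptor through which transferrin-bound iron is taken up, rose about 3-fold. ILMN_2860804 read 828, 1207 and 959.6 in control and 3086, 2926 and 2601 in knockdown arrays. ILMN_2619848 read 623, 958 and 744 in control and 2511, 2298 and 2254 in knockdown arrays. On both probes the lowest knockdown array was above 2 times the highest control array, and control array 2 stood highest within its group. The means rose from 998 ± 192 to 2871 ± 247 and from 775 ± 169.6 to 2354 ± 138 (SD, n = 3). The log2 fold changes were 1.54 ± 0.109 and 1.62 ± 0.113 (SE), with limma's adjusted p = 3.85e-10 and 2.73e-10. The change of the first probe minus that of the second was -0.087 on the log2 scale (two-sided exact permutation p = 0.2); 3 against 3 arrays cannot give a p below 0.1, so this test could not have called a difference.

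Slc11a2, the iron carrier of endosomes and the apical membrane, rose on all 3 of its probes, by amounts that differed with background left in. ILMN_1243129 read 224, 224 and 240.4 in control and 517, 451 and 426 in knockdown arrays, a 2.02-fold rise (log2 fold change 1.01 ± 0.088 SE, limma's adjusted p = 1.04e-08). ILMN_2665063 read 251, 289 and 283 against 318, 369 and 323, a smaller step of 0.29 ± 0.089 on the log2 scale with limma's adjusted p = 0.0235. ILMN_2578829 was under the limit on all 3 control arrays, at 134, 134 and 117, and above it on all 3 knockdown arrays, at 166, 172 and 179. It rose at least 1.26-fold (limma's adjusted p = 0.000665). The groups did not overlap on any of the 3, but nothing is read from that. With 3 arrays a group, uncalled probes such as ILMN_2876066 of Fth1 were also without overlap. The first probe rose by 0.72 more than the second on the log2 scale, and its ratio to the second was higher in each knockdown array than in any control array (two-sided exact permutation p = 0.1, the smallest this design allows). The transcript forms of Slc11a2 that each probe reads are not known here. The call of ILMN_2665063 was lost without control replicate 1 or knockdown replicate 2 (limma's adjusted p = 0.153 and 0.152), and with background subtracted (0.183), normexp correction (0.0626) or a trended and robust fit (0.0526).

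The storage proteins changed little beside these. Fth1, the ferritin heavy chain that carries the ferroxidase site, read 43661, 45242 and 43661 in control and 43076, 38723 and 39759 in knockdown arrays on ILMN_2876066. On ILMN_2876071 it read 44373, 41968 and 41760.4 against 40762, 37230.1 and 42121. The second probe's groups overlapped and the first's only just did not. Neither was called, and the 95% intervals of the log2 fold changes were -0.30 to 0.04 and -0.27 to 0.08 (limma's adjusted p = 0.426 and 0.615). Ftl1, the light chain, fell on ILMN_1229517, from 38424, 36119.8 and 32566 to 28300.1, 29614 and 29516. That is a ratio of 0.818, with limma's adjusted p = 0.0198. The call of Ftl1 did not hold when control replicate 1, control replicate 2 or knockdown replicate 1 was left out (limma's adjusted p = 0.126, 0.0650 and 0.0706), and with background subtracted (0.106), normexp correction (0.113) or the mean of its probes (0.0611). The other Ftl1 probe, ILMN_2816707, lay under the limit on every array. These ferritin probes were brighter than 99.7% or more of all probes; whether they were near saturation was not tested. Ferritin genes have near-identical pseudogene copies, so the probes may not read these transcripts alone.

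Slc40a1, which encodes the iron exporter, fell modestly. ILMN_2747923 read 2619, 2541 and 1783 in control and 1702, 1513 and 1715 in knockdown arrays. Control array 3 lay close above the knockdown arrays and apart from the other two controls. The means were 2314 ± 462 and 1644 ± 113 (SD, n = 3), or -0.48 ± 0.113 (SE) as a log2 difference, at an adjusted p by limma of 0.00393. With background subtracted the adjusted p by limma was 0.292 at a log2 fold change of -0.50, and with the mean of both probes it was 0.0562. The second probe, ILMN_1238359, stayed between 102 and 108, dimmer than all but 1.86% of probes.

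Ireb2, the iron regulatory protein that is degraded when iron is plentiful, was not called. ILMN_1225719 read 581, 591 and 536 in control and 569, 489 and 475 in knockdown arrays, and ILMN_3161612 read 337, 386 and 360.1 against 385, 384 and 383. The groups overlapped on both, with 95% intervals of -0.34 to 0.02 and -0.08 to 0.26 for the log2 fold change (limma's adjusted p = 0.314 and 0.630). Lcn2, the siderophore-binding protein, fell from 205, 198 and 206 to 120.0, 150.1 and 134. Its 3 control arrays lay above the limit and 1 of the knockdown arrays did, so the lower level is near background. The log2 fold change was -0.60 ± 0.089 (SE), with limma's adjusted p = 2.52e-05.

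**Figure D2:**
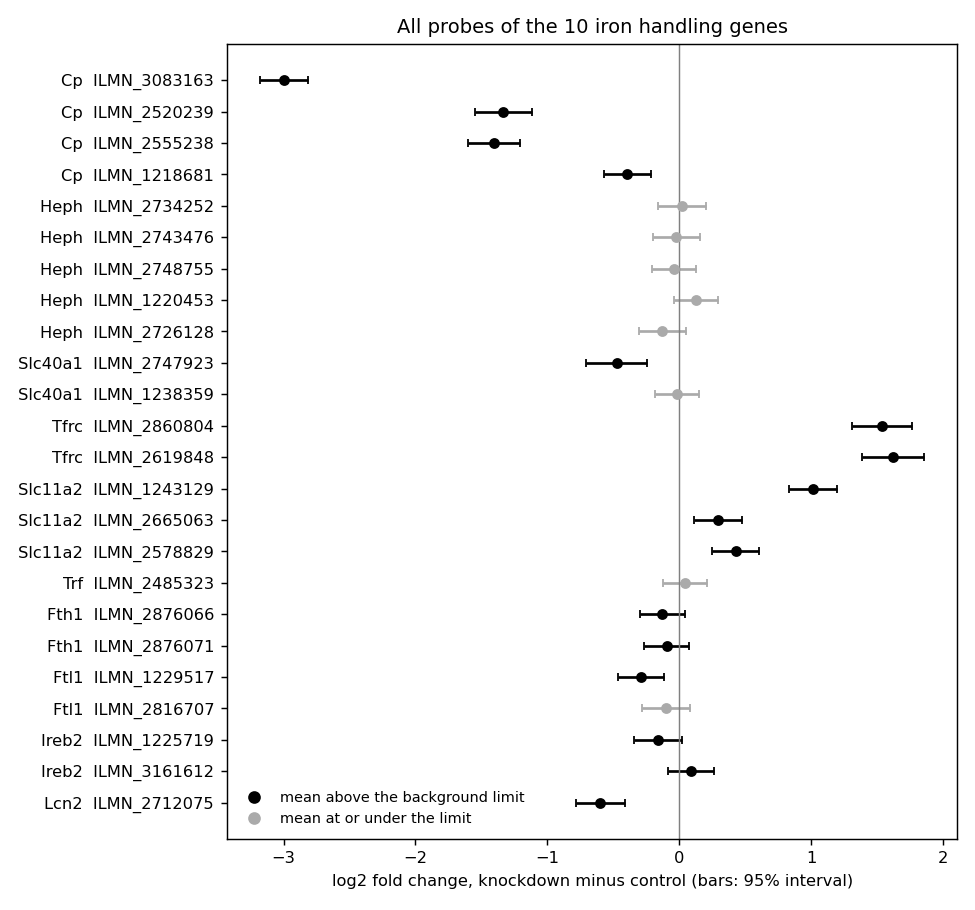
Log2 fold change (knockdown minus control, horizontal axis) of each of the 24 member probes, with the 95% interval from the fit over all probes; grey marks probes whose mean lay at or under the background limit. Both Tfrc probes sit near 1.5, the Cp probes spread from -2.99 to -0.39, and the grey probes lie around 0.

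Among the 20 probes of the 9 members other than Cp, 5 rose, 3 fell and 12 were not called. Over the whole array 15.6% of 45281 probes were called, 7.84% higher and 7.76% lower. Of the 12 that lay above the limit, the same 5 rose and 3 fell, against 37.5% called among all probes above it (18.8% higher, 18.7% lower). The limit was set on the mean of all arrays. ILMN_2578829 of Slc11a2, at 128 in control, and Lcn2, at 135 in knockdown arrays, thus passed it only through their higher group. The 8 under the limit gave 0 calls. By its brightest probe, Cp aside, 7 of these 9 genes lay above background: Tfrc and Slc11a2 rose, Slc40a1, Ftl1 and Lcn2 fell, and Fth1 and Ireb2 were not called. Of all 9665 genes above the limit, taken the same way, 42.2% were called, 20.8% higher and 21.5% lower. The 4 probes of Cp, the member chosen from this comparison, are left out of these counts.

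Promoter windows from RefSeq, running from 250 bases before to 50 bases after a transcript start on build GRCm38.p6, were found for 6 of the 10 members: Cp, Lcn2, Ftl1, Ireb2, Tfrc and Fth1. They are shown for Cp and Tfrc, the members that moved most in each direction. The stretch before the upstream Cp start (chr3:19956804-19957053, plus strand, 37.2% G and C) holds none of the motifs searched, while that before the upstream Tfrc start (chr16:32608646-32608895, plus strand, 64.8% G and C) is rich in G and C. Capitals in the Tfrc stretch mark its 2 GCGTG matches, which lie on the other strand and so read CACGC, and at its end the first letters of an ACGTG that runs across the start.
Cp, 250 bases before the upstream start: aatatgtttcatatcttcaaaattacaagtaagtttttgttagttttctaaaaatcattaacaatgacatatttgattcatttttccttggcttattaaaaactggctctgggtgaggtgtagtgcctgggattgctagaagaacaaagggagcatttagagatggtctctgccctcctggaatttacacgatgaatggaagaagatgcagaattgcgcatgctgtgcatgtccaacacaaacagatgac
Tfrc, 250 bases before the upstream start: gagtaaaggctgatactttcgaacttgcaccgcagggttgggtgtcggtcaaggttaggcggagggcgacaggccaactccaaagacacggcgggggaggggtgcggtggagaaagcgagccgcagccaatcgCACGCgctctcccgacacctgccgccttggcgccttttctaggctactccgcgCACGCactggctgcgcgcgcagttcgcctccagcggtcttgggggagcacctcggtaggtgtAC

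The motifs searched, on both strands, were ACGTG and GCGTG (cores of the hypoxia response element), TGACNNNGC (NRF2), TGGGGGGT (Gli-similar proteins), TTGCNNAA (C/EBP proteins) and TATAAA (the TATA box). The 6 members with a window had 9 windows between them. A member could thus have more chances of a match than a single window, and the 2 shares are not alike. ACGTG occurred in 1 of these 6 members, Tfrc, and in 19.6% of all 32851 windows. The letters begin 2 bases before the upstream start and 228 before the downstream one, since the 2 windows overlap. GCGTG occurred in 3 members (Tfrc, Ftl1 and Fth1) and in 32.4% of windows. TTGCNNAA occurred in 3 members (Cp, Lcn2 and Fth1) and in 10.8% of windows, 70 bases before the downstream Cp start and 216 before the Lcn2 start. In Fth1, which was not called, matches began at -129 and -58 from the downstream start. TATAAA occurred in 3 members (Cp, Ftl1 and Fth1) and 13.6% of windows. TGACNNNGC and TGGGGGGT were in 0 of the 6 members and in 12.4% and 1.53% of windows. The pieces below show the Tfrc match (chr16:32608882-32608911, plus strand) and the C/EBP matches of Cp (chr3:19957168-19957197, plus strand) and Lcn2 (chr2:32387937-32387966, minus strand), with the motif in capitals. No piece is shown for the TTGCNNAA matches of Fth1. A match is a description of letters and not a site of binding.
Tfrc, ACGTG: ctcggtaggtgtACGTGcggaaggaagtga
Cp, TTGCNNAA read on the other strand: attagttactcTTTTGCAAcattaaattgt
Lcn2, TTGCNNAA: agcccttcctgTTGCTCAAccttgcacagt

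Other genes of iron handling were taken from lists by role, each gene by its brightest probe, with the 10 members left out. Of 93 measured, 60 lay above the limit; of these 9 rose, 18 fell and 33 were not called. Among all 9665 genes above the limit 42.2% were called, 20.8% higher and 21.5% lower. The median log2 fold change of the 60 was -0.0084, beside -0.0054 over all genes above the limit.

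In the uptake list 2 of 7 such genes rose and 1 fell, with a median log2 fold change of 0.057. Of all genes above the limit 20.8% rose and 21.5% fell, to be set beside this list and the storage list. The metalloreductase Steap2 went from 3286 ± 144 to 4178 ± 182 and the phagosomal iron carrier Slc11a1 from 1076 ± 101 to 1324 ± 119.6 (SD, n = 3; limma's adjusted p = 0.00370 and 0.0263). The lysosomal channel Mcoln1 fell by 0.28 on the log2 scale (limma's adjusted p = 0.0356). The calls of Slc11a1 and Mcoln1 were lost with background subtracted, with normexp correction, and when control replicate 1, control replicate 2 or knockdown replicate 3 was left out. Slc11a1 also lost its call by the mean of probes, and Mcoln1 in a trended and robust fit and without knockdown replicate 2. Over these settings limma's adjusted p ran from 0.0589 to 0.412 for Slc11a1 and from 0.0744 to 0.222 for Mcoln1. In the storage list 2 of 3 fell, with a median of -0.31. Ncoa4, which delivers ferritin to the lysosome, fell from 392 ± 24.6 to 308 ± 13.0, and the iron chaperone Pcbp1 from 9961 ± 508 to 8081 ± 787 (limma's adjusted p = 0.00458 and 0.0181). For Pcbp1 the call was gone with background subtracted or normexp correction, and when control replicate 2, control replicate 3 or knockdown replicate 3 was omitted (limma's adjusted p 0.0521 to 0.161 over these). Aco1 and Fbxl5, the other iron regulatory protein and the ligase subunit that marks Ireb2 for decay, were not called, with log2 fold changes of -0.034 and -0.27. Next to Slc40a1 in the export list, the amyloid precursor protein gene App fell by 0.40 on the log2 scale (limma's adjusted p = 0.00131). Bdh2, an enzyme assigned to mammalian siderophore synthesis, fell from 293 ± 25.8 to 181 ± 15.4 beside Lcn2 (limma's adjusted p = 4.05e-06).

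Of 14 genes of haem handling above the limit 7 fell, 2 rose and 5 were not called, against 42.2% called and 21.5% lower among all genes above the limit, with a median log2 fold change of -0.21. Biliverdin reductase B, Blvrb, fell from 2501 ± 337 to 1028 ± 98.5 (SD, n = 3), and the haem synthesis enzymes Ppox and Urod had log2 fold changes of -0.81 and -0.76 (limma's adjusted p = 1.44e-09, 1.51e-07 and 5.31e-07). Haem oxygenase 1, Hmox1, was not called, at 184 ± 5.11 and 208 ± 17.4. Of 20 genes of mitochondrial iron and iron-sulfur clusters above the limit, 17 were not called, 2 rose and 1 fell, with a median of 0.049. Nubp2, a scaffold of cytosolic cluster assembly, rose by 0.63, the cluster scaffold Iscu rose by 0.38, and the mitochondrial iron importer Slc25a37 fell by 0.60 on the log2 scale (limma's adjusted p = 6.94e-06, 0.00206 and 1.76e-05). Iscu had limma's adjusted p = 0.0511 with background subtracted.

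In a list of copper handling genes, copper being the metal that ceruloplasmin carries, 3 of 8 were higher and 3 lower, with a median log2 fold change of 0.11. Among all genes above the limit 42.2% were called, 20.8% higher and 21.5% lower. The list also holds genes that deliver copper elsewhere or bind it, such as Ccs, the chaperone of superoxide dismutase, which was among the 3 that rose. Metallothionein 1, Mt1, which binds copper and zinc, rose from 4245 ± 368 to 10158 ± 718, and the copper chaperone Atox1 from 3732 ± 225 to 5325 ± 547 (SD, n = 3; limma's adjusted p = 3.54e-10 and 0.000204). The copper importer Slc31a1 fell from 1838 ± 152 to 1245 ± 129 (limma's adjusted p = 7.70e-05). With background subtracted Slc31a1 and Atox1 had limma's adjusted p = 0.0573 and 0.0603. Atp7b, the pump that loads copper onto ceruloplasmin in the liver, had a mean under the limit in both groups. The related pump Atp7a was among the 3 that fell, from 387 ± 71.5 to 274 ± 22.5 (limma's adjusted p = 0.00185, and 0.193 with background subtracted). In the hepcidin list, with a median of -0.44, 2 of 3 genes above the limit fell: the BMP co-receptor neogenin, Neo1, from 5150 ± 149 to 1581 ± 123, and erythroferrone, Erfe, from 3689 ± 387 to 2722 ± 293 (limma's adjusted p = 7.39e-13 and 0.00170). Erfe had limma's adjusted p = 0.140 with background subtracted. Hepcidin itself, Hamp, was under the limit on all 6 arrays. Of the other transcripts known to carry an iron-responsive element, 1 of 5 measured lay above the limit, Cdc14a, and it was not called.

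**Figure D3:**
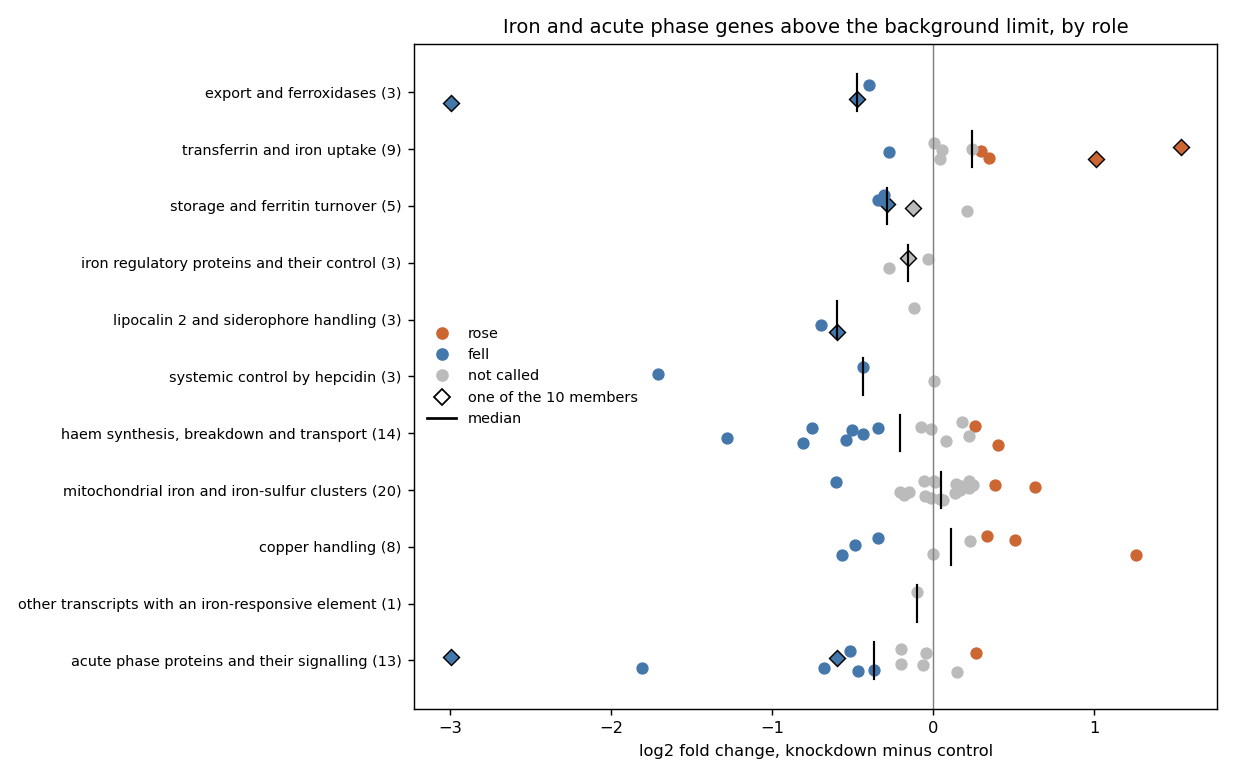
Log2 fold change (knockdown minus control) of each gene above the background limit, by role, with the number of genes in brackets; orange rose, blue fell, grey was not called, diamonds are the members above it and the vertical bar is the median. Genes of mitochondrial iron and iron-sulfur clusters crowd around 0.05, and the haem genes are spread towards lower values with a median of -0.21.

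Cp and Lcn2 are also acute phase genes, raised in many tissues by inflammatory signals. With those 2 left out, 11 genes of that list lay above the limit, of which 5 fell and 1 rose, with a median log2 fold change of -0.20. Over all genes above the limit 42.2% were called, 20.8% higher and 21.5% lower. The transcription factor Cebpb, which drives acute phase genes, fell from 5713 ± 689 to 1622 ± 32.8 (SD, n = 3). Its relative Cebpd fell from 1464 ± 50.6 to 1027 ± 92.4 and the cytokine feedback inhibitor Socs3 from 1171 ± 66.7 to 731 ± 26.3. Limma's adjusted p was 8.03e-13 for Cebpb, 0.000109 for Cebpd and 1.63e-06 for Socs3. All 5 that fell belong to the signalling part of the list. Of its acute phase proteins above the limit, Itih4 rose from 126 ± 8.38 to 152 ± 7.85 (limma's adjusted p = 0.0317), and Saa1 and Saa2 were not called. Itih4 passed the limit through its knockdown arrays alone. Interleukin 6 and haptoglobin (Il6 and Hp) had means under the limit in both groups. The list holds few genes above background, and nothing particular to it is drawn from these counts. Markers of macrophages and other leukocytes, which also make Cp and Lcn2, were above the limit for 2 of 6 genes, Csf1r and Cd14. Csf1r rose by 0.44 and Cd14 fell by 0.38 on the log2 scale (limma's adjusted p = 0.00249 and 0.00336). The summed intensity of the 6 ran from 1285 to 1462 in control and from 1189 to 1341 in knockdown arrays. Ptprc, Adgre1 and Itgam had means under the limit, and the part of such cells in the falls of Cp and Lcn2 was not tested.

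Genes next to the members on the chromosome were set beside them. The 10 nearest genes above the limit around Cp on chromosome 3 had a median log2 fold change of -0.28 and ran from -0.62 to 0.098. Of these, 4 fell and 0 rose, so 4 of 10 were called where 42.2% of all genes above the limit were. By direction, 21.5% of all genes above the limit fell and 20.8% rose. The nearest on either side were Pde7a, at -0.60, and Hps3, at -0.048. Cp, at -2.99, lay below all 10, but it was chosen for its fall, so nothing is read from that. The neighbours of Tfrc on chromosome 16 had a median of -0.085 and a highest value of 0.32, below both Tfrc probes. The neighbours of Slc11a2 on chromosome 15 had a median of 0.25. Of these 5 rose and 1 fell, against 20.8% higher and 21.5% lower among all genes above the limit, and they ran from -0.97 (Lima1) to 0.92 (Cers5). The highest lay just under the 1.01 of the brightest Slc11a2 probe and above its other probes. That probe was the brightest over all arrays but not in control, where it averaged 230 against 274 for ILMN_2665063. Slc40a1 and Lcn2 lay below all 10 of their neighbours, whose medians were 0.0996 and -0.035. For Slc40a1, at -0.48 ± 0.113 (SE), the lowest neighbour was close, at -0.38, and the highest had 3.63. The neighbours of Lcn2, itself at -0.60, ran from -0.30 to 0.25. Ftl1 did not lie below all of its neighbours, the lowest of which had -0.37.

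**Figure D4:**
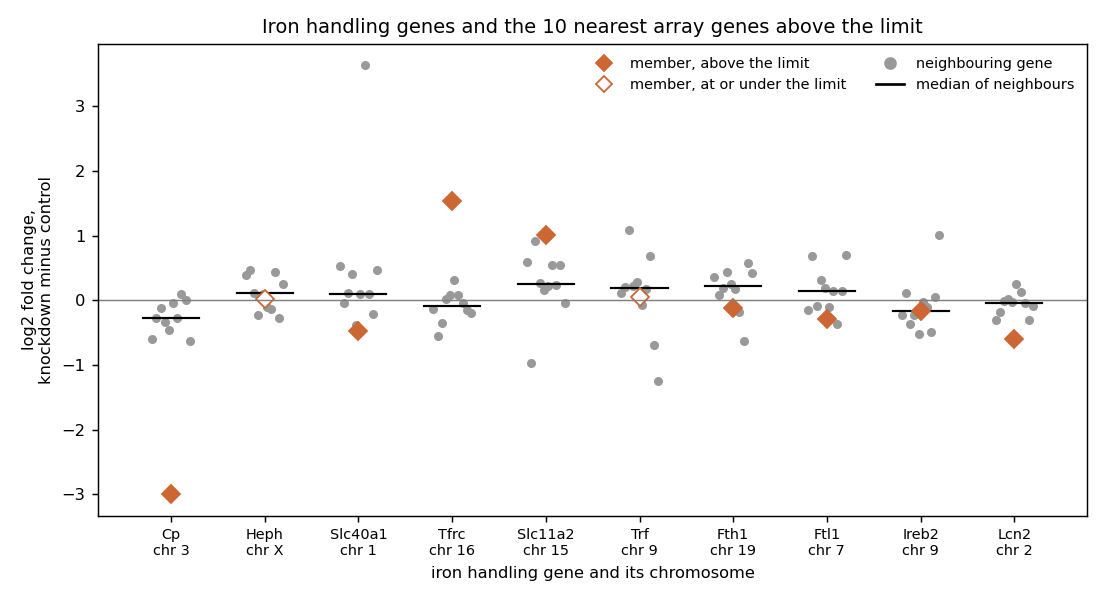
Log2 fold change (knockdown minus control) of the brightest probe of each member (diamond; open where its mean lay at or under the background limit) and of the 10 nearest array genes above that limit on its chromosome (grey points, bar at their median). Tfrc at 1.54 stands above its neighbours. Slc11a2 at 1.01 sits just above the highest of its own, 0.92, but its other probes, not drawn, had 0.29 and 0.43. Cp, at -2.99, was chosen for its fall.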

How the data were processed

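RNA from 6 samples was hybridised to an Illumina mouse bead array with Cy3 label, per the labels' protocols. The authors deposited a linear intensity for every probe on every array. Their software and normalization steps were not given in the sources used here; scanner output was not used. The deposited values share 1 distribution, with log2 medians that differ by at most 0.00029, and background was left in, the lowest intensity being 85.4. The number of arrays limits the precision.

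Intensities were floored at 16, which altered none, and transformed to log2. Knockdown was compared with control over all 45281 probes by limma 3.58.1 in R 4.3.3 (lmFit and eBayes, no trend), with Benjamini-Hochberg adjustment over all probes and a threshold of 0.05; the fit was tested on simulated data. A fold against a group wholly under the background limit used that limit. A single gene symbol was annotated for 34885 probes, several for 18 and none for 10378. Where a gene stands for several probes, the probe with the highest mean was used, and 0 of 121 genes of the iron and acute phase lists had probes called in opposite directions. No build is named for the array design, so a RefSeq gene table of GRCm38.p6 gave only names and gene order.

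The members, lists and motifs were chosen with earlier results of these data known. Named genes were all member probes, Glis2 and up to 3 called genes of each list by smallest p. The 3 patterns nearest to Cp and the genes next to Cp were also named. Hmox1, Aco1, Fbxl5, Hamp, Atp7b, Cdc14a, Il6 and Hp were added as genes known for their role, after values were seen. Podxl, Synpo, Dcn, Ccs, Lima1, Cers5, Atp7a, Itih4, Saa1 and Saa2 were singled out after values were seen. Alternatives were background subtraction, normexp, probes above the median, eBayes with trend and robust, genes by brightest or mean probe, each array left out, quantile normalization, a floor of 32, an offset of 50, median centring and a replicate block.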

Additional observations from a re-analysis of the deposited data

How the results depend on the processing

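Taking off the most frequent intensity gave 3447 called probes instead of 7065 over the array, 8 called member probes instead of 12, 19 called genes of the wider iron lists instead of 34, members included, and -3.25 for the log2 fold change of Cp. Testing genes in place of probes gave 4291 calls by the brightest probe and 3739 by the mean of probes, of which 6 and 4 were among the 10 members, beside 12 member probes; the unit differs. The mean of its probes put Cp at -1.53, where the dim probes count as much as the bright one. With 1 array left out, called probes ran from 6022 to 6521, member probes from 10 to 12, wider iron genes from 29 to 34 and the value of Cp from -3.06 to -2.91. Sign changes, none of them called, came from probes under the background limit. ILMN_2734252 of Heph had -0.0076 by the mean of probes and -0.030 to 0.093 with an array left out. With an array left out, ILMN_2743476 of Heph ran from -0.068 to 0.042, ILMN_2748755 of Heph from -0.064 to 0.0043 and ILMN_1238359 of Slc40a1 from -0.037 to 0.0036. ILMN_2816707 of Ftl1 had 0.015 with background subtracted. Where every array fell to the floor after subtraction, no value was given. The cause of these shifts was not tested.

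Same-numbered arrays did not deviate together (correlations of -0.086, -0.041 and -0.0495 over 18080 probes), so they share only a number. With the replicate block 6790 probes, 12 member probes and 32 wider iron genes were called, and Cp had -2.99. Signal over background limits Heph, Trf, the second probes of Slc40a1 and Ftl1, and the lower level of Lcn2.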
